A study of Mus musculus with 12 samples.

Results

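The genes of major histocompatibility complex (MHC) antigen presentation were followed across the hearts of this mouse series. The members were the 10 rows of the count table whose name was on a list of 5 class I genes (H2-K1, H2-D1, H2-T23, B2m and Nlrc5) and 5 class II genes (H2-Aa, H2-Ab1, H2-Eb1, Cd74 and Ciita). All 10 were found among the 22584 genes of the table, and all 10 were among the 15004 genes that passed the filter on low counts. Polyadenylated RNA came from hearts labelled as isolated cardiomyocytes of WT mice, with C57BL6 given as the strain. There were 4 groups of 3 libraries, named here CKD JV001, CKD saline, sham JV001 and sham saline. Mice of both CKD groups received AngII and a high salt diet and had 1 kidney removed (uninephrectomy), a model of chronic kidney disease, while mice of both sham groups had a sham operation. Within each of these, mice were injected with JV001 or with saline. The labels give 12 weeks for CKD JV001, sham JV001 and sham saline and no duration for CKD saline, and they know JV001 only by this code, in a study whose title names gene therapy that recaps telomeres. No source used here gives the age of the mice or the dose of JV001. Nothing in the labels says that libraries of 1 group came from separate mice, so p-values measure the spread between these libraries, which may be technical.

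Class I molecules stand on almost every nucleated cell. A heavy chain and beta-2 microglobulin hold a peptide that the proteasome cut and the TAP transporter carried into the endoplasmic reticulum, and CD8 T cells read it. Class II molecules stand mainly on macrophages, dendritic cells and B cells. Their alpha and beta chains are escorted by the invariant chain Cd74 to the endosome, where it is replaced by a peptide that CD4 T cells read. Nlrc5 is the transactivator of the class I genes and Ciita that of the class II genes, and both act through a shared promoter module of an X box and a Y box. Interferon-gamma is a strong inducer of both. Cardiac myocytes are known for low MHC levels, and resident macrophages of the heart for high class II levels.

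The promoters of 4 members are shown to set class I beside class II at the X and Y boxes through which the transactivators act. B2m, H2-D1 and H2-Aa hold letters of both the X2 box and the Y box, and H2-Eb1 is shown as one in which the searched X2 letters were not found. Each window is the 180 bases before the start site in RefSeq's table of the build GRCm38.p6, 5′ to 3′ on the gene's strand. The deposited counts were made on GRCm39, so these coordinates do not apply to the counts' build. Capitals mark letters that match a searched motif on either strand. The searched letters were CCAAT for the Y box, TGACG for the core of the X2 box, GCAAC for the core of the X1 box, GAAA, any 2 letters and GAAA, or the 1 letter shorter GAANNGAAA, for interferon-stimulated elements, and GGG, any 2 letters, TT, any letter and CC for a kappaB-like element.
B2m: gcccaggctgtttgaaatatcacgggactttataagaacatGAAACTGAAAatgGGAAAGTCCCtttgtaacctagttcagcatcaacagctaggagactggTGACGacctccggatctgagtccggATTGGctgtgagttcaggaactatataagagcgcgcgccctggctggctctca
H2-D1: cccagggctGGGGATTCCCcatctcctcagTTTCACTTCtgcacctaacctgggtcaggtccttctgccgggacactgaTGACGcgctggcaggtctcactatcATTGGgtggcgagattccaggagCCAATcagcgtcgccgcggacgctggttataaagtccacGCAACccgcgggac
H2-Aa: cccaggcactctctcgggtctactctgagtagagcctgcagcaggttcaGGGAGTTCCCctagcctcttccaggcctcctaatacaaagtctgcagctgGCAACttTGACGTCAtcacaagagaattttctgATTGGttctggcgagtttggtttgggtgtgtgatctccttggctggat
H2-Eb1: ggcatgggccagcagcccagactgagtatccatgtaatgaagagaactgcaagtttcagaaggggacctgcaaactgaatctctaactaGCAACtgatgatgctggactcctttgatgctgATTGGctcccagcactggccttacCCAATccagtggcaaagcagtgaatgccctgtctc
The B2m window lies on the plus strand of chr2:122147507-122147686 and the H2-D1 window on the plus strand of chr17:35262914-35263093. The H2-Aa window lies on the minus strand of chr17:34287824-34288003 and the H2-Eb1 window on the plus strand of chr17:34305687-34305866. Of the 10 members, 6 matched an entry of the table: these 4, H2-K1 and H2-T23. H2-K1 had 2 entries, and only the first of them is described. No sequence is shown for H2-Ab1, Nlrc5, Cd74 and Ciita.

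In B2m, H2-D1 and H2-K1 the first letter of TGACG stood 25 bases before that of ATTGG, the Y box read from its other strand. The distance was 26 bases in H2-Aa. TGACG followed at either distance by ATTGG was found on the gene's strand of 31 of 32851 promoters in the table (0.0944%), and these include the 4 members. H2-Eb1 and H2-T23 held a Y box match without TGACG between 250 bases before and 50 bases after the start, the span over which all promoters were searched. The single motifs were far more common: 37.4% of all promoters held CCAAT, 20.8% TGACG and 35.2% GCAAC. In H2-Aa the TGACG match overlapped a second one on the other strand, as TGACGTCA. B2m and H2-T23 held the longer interferon-stimulated element, found in 3.44% of promoters. H2-D1 and H2-K1 held the shorter one, found in 7.52%. The kappaB-like letters stood in B2m, H2-D1, H2-K1 and H2-Aa and in 4.79% of promoters. The letters and distances were chosen with these promoters in view, and a match describes the sequence only.

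Library totals were 25233561 to 37000337 counts. The label of the cells was checked against markers: the 8 ventricular genes, among them Myh6 and Tnnt2, summed to between 24885 and 97387 CPM (counts per 1000000, with TMM factors) and none was at 0 in any library. Markers of other cells were present throughout, with 8 endothelial markers at 352 to 2346 CPM, 7 fibroblast markers at 130.4 to 1263 CPM and 11 macrophage markers at 24.8 to 650.2 CPM. Library 3 of both CKD groups stood apart. The ventricular sum was 24885 CPM in CKD JV001 library 3, against 53915 and 54220 CPM in libraries 1 and 2. It was 49252 CPM in CKD saline library 3, against 87673 and 88171 CPM in libraries 1 and 2. Sham saline library 1 also stood apart, with a ventricular sum of 73308 CPM, against 97387 and 96675 CPM in libraries 2 and 3, and an endothelial sum of 1256 CPM, against 352 and 475 CPM. In RNA from many cells, fewer cells of a type and less RNA per cell cannot be told apart.

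Class I mRNA was the more abundant of the classes. Per length, B2m was the highest member with a mean of 257 FPKM (counts scaled by gene length and library total) over the 12 libraries, followed by H2-D1 at 184 and H2-K1 at 115 FPKM. Cd74 averaged 66.0 FPKM, H2-Aa 31.0, H2-T23 26.9, H2-Ab1 23.8 and H2-Eb1 21.2 FPKM. The transactivators were the lowest members, Nlrc5 at 1.43 FPKM and Ciita at 0.140 FPKM. Ciita rested on 525 reads in all 12 libraries and on 7 reads in CKD saline library 2, whereas Nlrc5 had at least 84 reads and each other member at least 141 reads in every library.

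H2-K1 and H2-D1 encode the classical heavy chains that present peptides to CD8 T cells. H2-K1 had 375, 366 and 789 CPM in CKD JV001 libraries 1 to 3, 129.6, 125 and 317 CPM in CKD saline, 181, 178 and 103 CPM in sham JV001, and 209, 74.7 and 84.8 CPM in sham saline. H2-D1 had 474, 469 and 990.3 CPM in CKD JV001, 150.4, 150.7 and 439 CPM in CKD saline, 245, 230.2 and 141 CPM in sham JV001, and 272, 90.4 and 83.9 CPM in sham saline. Every CKD JV001 library lay above every library of the other 3 groups for both chains, and CKD saline, sham JV001 and sham saline overlapped one another. These closely related chains share sequence, and the counts are uncertain where reads could be split: 8.11% of 50-base stretches of the longest H2-K1 transcript and 14.3% of H2-D1's also occur in transcripts of other genes, as read from GENCODE M21 transcripts. At 100 bases the share was 0% for H2-K1 and 4.64% for H2-D1.

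H2-T23 encodes a non-classical heavy chain that presents leader peptides to receptors of natural killer cells. It had 61.2, 50.8 and 98.1 CPM in CKD JV001, 19.4, 15.6 and 53.9 CPM in CKD saline, 25.1, 26.3 and 14.2 CPM in sham JV001, and 30.1, 11.5 and 8.96 CPM in sham saline. CKD saline library 3 lay above CKD JV001 library 2, so these groups overlapped. Of its 50-base stretches, 16% also occur in other genes. B2m, the light chain that every class I molecule needs, had 317, 308 and 651 CPM in CKD JV001, 121, 122 and 280.3 CPM in CKD saline, 189, 152 and 114 CPM in sham JV001, and 188, 74.1 and 76.1 CPM in sham saline. Its CKD JV001 libraries lay above all 9 others. Nlrc5 had 12.7, 14.3 and 44.5 CPM in CKD JV001, 6.07, 4.16 and 12.4 CPM in CKD saline, 14.7, 8.38 and 4.45 CPM in sham JV001, and 5.01, 3.13 and 2.18 CPM in sham saline. CKD JV001 lay above CKD saline for Nlrc5, but sham JV001 library 1 lay above CKD JV001 libraries 1 and 2.

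H2-Aa and H2-Ab1 encode the alpha and beta chains of the I-A molecule. H2-Aa had 69.6, 67.3 and 82.4 CPM in CKD JV001, 16.4, 12.7 and 56.7 CPM in CKD saline, 20.3, 31.4 and 11.4 CPM in sham JV001, and 21.1, 15.9 and 3.81 CPM in sham saline. H2-Ab1 had 56.1, 53.3 and 74.8 CPM in CKD JV001, 12.7, 9.73 and 45.4 CPM in CKD saline, 13.5, 24.3 and 7.39 CPM in sham JV001, and 18.3, 11.4 and 3.65 CPM in sham saline. For both chains CKD saline library 3 was the highest library outside CKD JV001 and sham saline library 3 the lowest of all. H2-Eb1 encodes the beta chain of the I-E molecule, whose alpha chain gene is defective in C57BL/6 mice. It had 66.98, 64.9 and 87.4 CPM in CKD JV001, 15.6, 13.3 and 60.0 CPM in CKD saline, 20.1, 36.0 and 10.4 CPM in sham JV001, and 21.6, 12.9 and 4.30 CPM in sham saline.

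Cd74, the invariant chain, was the most abundant class II member. It had 179, 171 and 247 CPM in CKD JV001, 38.4, 33.8 and 150.3 CPM in CKD saline, 55.4, 87.1 and 28.1 CPM in sham JV001, and 55.5, 33.0 and 11.7 CPM in sham saline. Ciita had 2.37, 3.26 and 2.26 CPM in CKD JV001, 1.44, 0.231 and 1.99 CPM in CKD saline, 1.36, 0.701 and 0.939 CPM in sham JV001, and 0.610, 0.636 and 0.285 CPM in sham saline. As with the chains, the CKD JV001 libraries of Cd74 and Ciita lay above all 9 others. Over the 10 members this held for 8, the exceptions being H2-T23 and Nlrc5, and it held for 4.47% of all 15004 genes. In the group means the order was sham saline, sham JV001, CKD saline and CKD JV001 from low to high for 9 members, while for Nlrc5 CKD saline lay below sham JV001. Between neighbours in that order the libraries overlapped, except for CKD JV001 above CKD saline in H2-K1, H2-D1, B2m and all 5 class II members, and for sham JV001 above sham saline in Ciita.

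**Figure D1:**
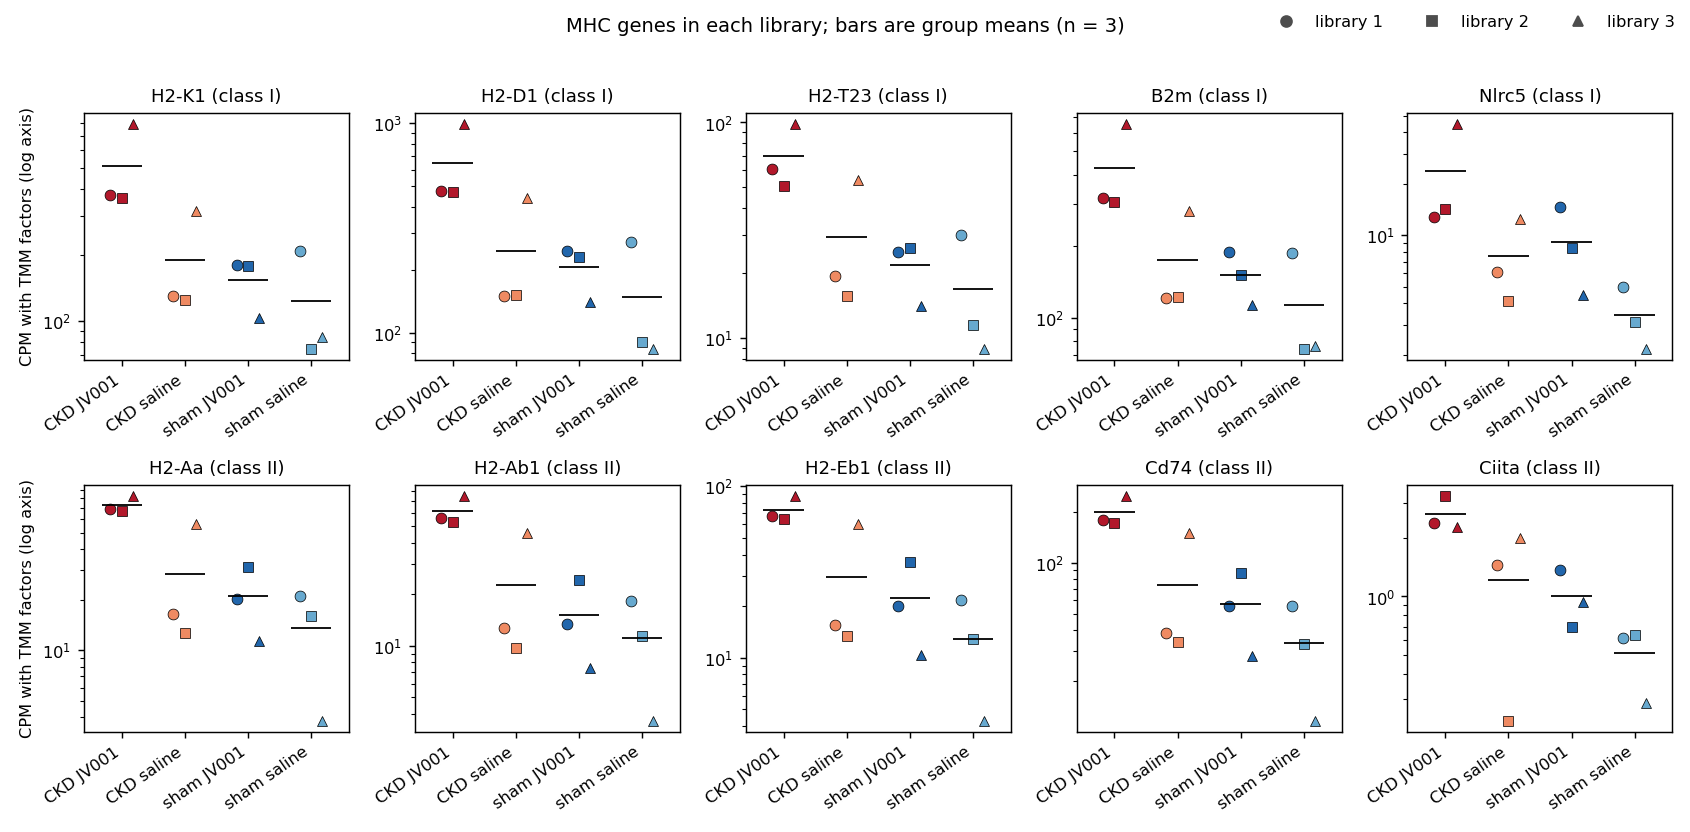
CPM with TMM factors (log axis) of the 10 members in each of the 12 libraries, by group, with the library number as the symbol and the group mean as a bar. CKD JV001 lies above the other groups in 8 panels, and library 3 is the highest of the CKD saline libraries in all 10.

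The proportions of chains of one class varied far less over the libraries than their levels. In FPKM the ratio of H2-Aa to H2-Ab1 ran from 1.10 to 1.63 over the 12 libraries, that of H2-Eb1 to H2-Ab1 from 0.808 to 1.07, and that of Cd74 to H2-Ab1 from 2.44 to 3.47. H2-K1 to H2-D1 ran from 0.574 to 0.804, H2-T23 to H2-K1 from 0.175 to 0.282, and B2m to the sum of both heavy chains from 0.814 to 1.03. Between the transactivators, which belong to different classes, Nlrc5 to Ciita ran from 5.19 to 24.3. This ratio is imprecise where Ciita had few reads, as in CKD saline library 2, at 22.2 with 7 Ciita reads. The classes also parted in single libraries: Cd74 to B2m ran from 0.0931 in sham saline library 3 to 0.348 in sham JV001 library 2. Members were set beside the mean profile of each class by the root mean square (RMS) difference of centred log2 CPM over 12 libraries. Each member came out nearer to its own class, but that profile includes the member itself, which lowers this difference. For H2-D1 it was 0.0964 to class I and 0.445 to class II, and for H2-Aa 0.533 to class I and 0.142 to class II. For Ciita it was 0.684 to class I and 0.594 to class II, a gap too narrow, given this, to place its pattern.

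Libraries that stood apart from their group did so by unequal amounts in the classes. CKD JV001 library 3 stood at a median of 2.10 times the mean of libraries 1 and 2 over the class I members (range 1.75 to 3.30) and at 1.33 times over the class II members (0.802 to 1.41). CKD saline library 3 stood at 2.49 times the mean of libraries 1 and 2 in class I (2.30 to 3.08) and at 4.05 times in class II (2.37 to 4.16). In sham saline, library 1 stood at 2.62 times the mean of libraries 2 and 3 in class I and at 2.43 times in class II. In sham JV001, library 3 stood at 0.574 times the mean of libraries 1 and 2 in class I and at 0.394 times in class II. Of the 10 members, 9 were highest in CKD JV001 library 3, and Ciita was highest in library 2 of that group.

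**Figure D2:**
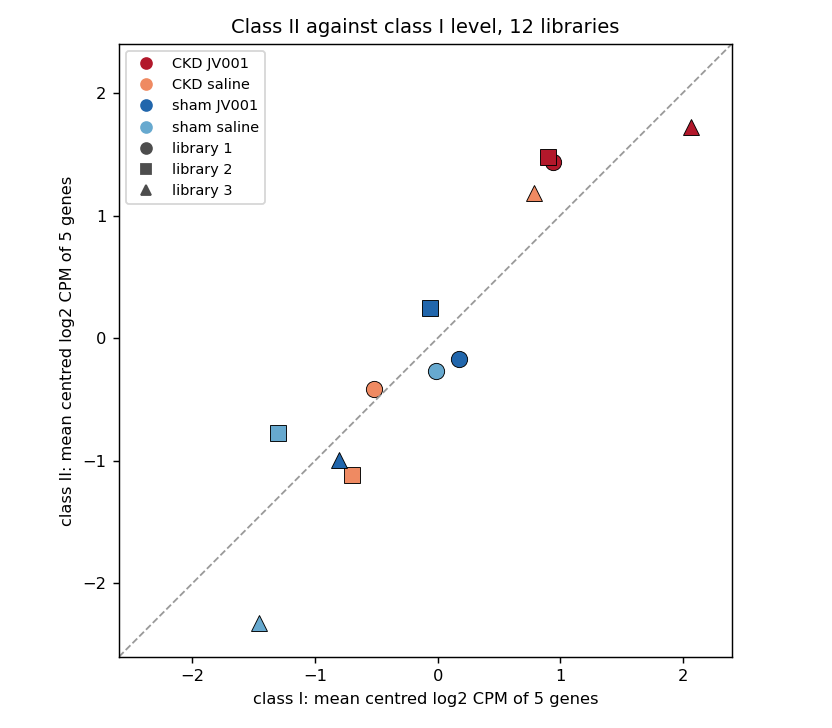
Mean centred log2 CPM of the 5 class II genes (y) against that of the 5 class I genes (x) in the 12 libraries, coloured by group, with the library number as the symbol and a dashed line of equal values. CKD JV001 libraries 1 and 2 lie 0.50 and 0.58 above the line and library 3 lies 0.35 below it.

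The effect of JV001 in the CKD model was asked by setting CKD JV001 against CKD saline. All 10 members had a positive log2 fold change in CKD JV001, as did 51.4% of all genes, with a median log2 fold change of 1.39 in class I (1.24 to 1.66) and 1.36 in class II (1.11 to 1.44), beside a median of 0.02 over all genes. H2-K1 averaged 510.1 ± 242 CPM in CKD JV001 and 190.4 ± 109 CPM in CKD saline (SD, n = 3 each), a log2 fold change of 1.42 ± 0.50 (SE). Cd74 averaged 199 ± 41.5 CPM in CKD JV001 and 74.2 ± 65.9 CPM in CKD saline (SD, n = 3 each), a log2 fold change of 1.42 ± 0.66 (SE). Nlrc5 differed most, by 1.66 ± 0.60 (SE), and Ciita least, by 1.11 ± 0.63 (SE). The place of Nlrc5 rested on 1 library. Without CKD JV001 library 3 its log2 fold change was 0.84, the lowest in class I and below the class II range of 1.16 to 1.27. None of the 10 passed edgeR's quasi-likelihood test at an adjusted p of 0.05 (Benjamini-Hochberg over all genes), at which 0% of genes were called higher. The adjusted p was 0.276 for all 5 class I members and 0.278 to 0.310 for class II. DESeq2, which called 0.222% of genes higher, also called 0 of the 10. Limma on the FPKM values, whose fits left Ciita out, called 0% of genes higher and 0 of the members it tested.

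Before adjustment, 5 of the 10 had a p under 0.05, all of class I, where 9.29% of all genes were higher at that level. The class I values of p were 0.0161 for H2-K1, 0.0301 for H2-D1, 0.0432 for H2-T23, 0.0183 for B2m and 0.0186 for Nlrc5 by edgeR's test. The class II values lay between 0.0519 for H2-Ab1 and 0.103 for Ciita by the same test. The difference between classes was not tested, and their log2 fold changes spanned overlapping ranges. In 9 of the 10 every CKD JV001 library was above every CKD saline library, H2-T23 being the exception, and this held for 8.22% of all genes.

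The call depended on how library 3 and the replicate number were treated. Same-numbered libraries of the CKD groups deviated together from their group means. A library 3 that stands apart alike in both groups is enough to give this, so it does not show pairing by number. With the replicate number as a block and only these 6 libraries in the fit, an alternative chosen after seeing the data, 9 members rose in CKD JV001 by edgeR's test, where 10.4% of all genes were called higher. Their adjusted p lay between 0.0113 for H2-K1 and 0.0340 for H2-Aa, with Ciita at 0.253, and the medians were 1.48 in class I and 1.69 in class II. H2-K1 then differed by 1.48 ± 0.083 (SE) and Cd74 by 1.78 ± 0.33 (SE) on the log2 scale. Without the block these 6 libraries gave 0 calls, as did the block with all 12 libraries. Without CKD saline library 3, 9 members passed edgeR's test (adjusted p of 0.0360 to 0.0432), with Ciita at 0.0969, where 13.2% of all genes were called higher. The class medians were then 2.00 in class I and 2.33 in class II. Without library 3 of both CKD groups, 8 members passed, Nlrc5 and Ciita being the exceptions, where 9.77% of all genes were called higher, and the medians were 1.51 in class I and 2.21 in class II. Without CKD JV001 library 3 alone, 0 members passed and the medians were 0.92 in class I and 1.24 in class II.

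**Figure D3:**
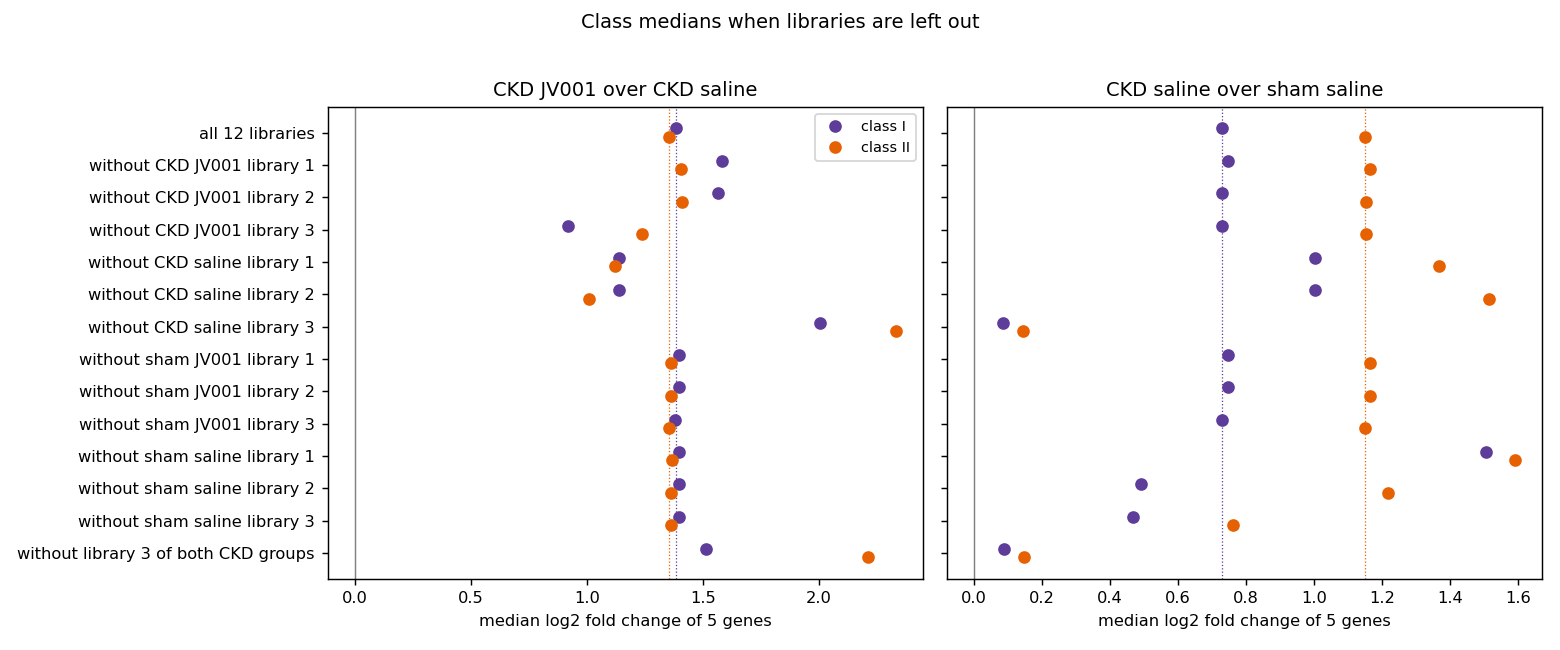
Median log2 fold change of the 5 class I and the 5 class II genes with all 12 libraries, with each library left out, and without library 3 of both CKD groups, for CKD JV001 over CKD saline (left) and CKD saline over sham saline (right); dotted lines mark the values with all libraries. Leaving out CKD saline library 3 brings the left medians to 2.00 and 2.33 and the right medians to 0.087 and 0.15.

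The effect of the CKD model with saline was asked by setting CKD saline against sham saline. All 10 members had a positive log2 fold change, as did 51.4% of all genes, with a median log2 fold change of 0.73 in class I (0.63 to 1.14) and 1.15 in class II (1.03 to 1.25), beside 0.01 over all genes. B2m averaged 174.5 ± 91.6 CPM in CKD saline and 113 ± 65.0 CPM in sham saline (SD, n = 3 each), and H2-Aa averaged 28.6 ± 24.4 CPM in CKD saline and 13.6 ± 8.87 CPM in sham saline (SD, n = 3 each). None passed edgeR's test (adjusted p of 0.941 to 0.946), where 0% of genes were called higher, and 0 had an unadjusted p under 0.05, where 2.15% of genes were higher. DESeq2 called 0 members and 0.0899% of genes higher, and limma called 0 of either. The groups overlapped in all 10 members, while 4.12% of all genes lay higher without overlap. The difference rested on single libraries: without CKD saline library 3 the medians were 0.087 in class I and 0.15 in class II, and without sham saline library 1 they were 1.51 in class I and 1.59 in class II. Without sham saline library 3 they were 0.47 in class I and 0.76 in class II.

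In sham-operated mice, sham JV001 was set against sham saline. All 10 log2 fold changes were positive, as were 49.2% of those of all genes. The median was 0.43 in class I (0.32 to 1.42) and 0.77 in class II (0.44 to 0.97), beside -0.01 over all genes. Cd74 averaged 56.9 ± 29.5 CPM in sham JV001 and 33.4 ± 21.9 CPM in sham saline (SD, n = 3 each). By edgeR's test no member passed (adjusted p of 0.9997 for each), where 0% of genes were called higher. DESeq2 called 0 members and 0.00894% of genes higher, and limma called 0 of either. Nlrc5 differed by 1.42 ± 0.61 (SE) on the log2 scale and alone had an unadjusted p under 0.05 by edgeR's test, as had 1.61% of all genes in that direction. In Ciita alone every sham JV001 library was above every sham saline library, at counts of 44, 25 and 31 reads in sham JV001 and 19, 24 and 11 reads in sham saline, and 5.69% of all genes did so. H2-Ab1 had the sign of its difference set by 1 library: without sham JV001 library 2 its log2 fold change was -0.085. The medians moved with single libraries too. The class I median was 1.09 without sham saline library 1, 0.21 without its library 2, 0.20 without its library 3 and 0.28 without sham JV001 library 1. The class II median was 0.25 without sham JV001 library 2 and 0.38 without sham saline library 3.

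With JV001 given to both, CKD JV001 was set against sham JV001, and here the differences were the largest of the 4 between groups in both class medians. All 10 log2 fold changes were positive, as were 51.1% of those of all genes. The median was 1.65 in class I (1.38 to 1.73) and 1.80 in class II (1.39 to 2.03), beside 0.02 over all genes. H2-Ab1 averaged 61.4 ± 11.7 CPM in CKD JV001 and 15.05 ± 8.55 CPM in sham JV001 (SD, n = 3 each), a 4.08-fold difference with an SE of 0.67 on the log2 scale. H2-K1 averaged 510.1 ± 242 CPM in CKD JV001 and 154 ± 44.2 CPM in sham JV001 (SD, n = 3 each), a 3.32-fold difference with an SE of 0.51. The edgeR test called none (adjusted p of 0.103 for H2-K1 to 0.180 for Ciita), where 0% of genes were called higher, although all 10 had an unadjusted p under 0.05, as did 14.8% of all genes in that direction. DESeq2 called 8 of the 10, leaving out Nlrc5 and Ciita, with adjusted p from 0.00930 for H2-K1 to 0.0404 for H2-Eb1, where it called 7.46% of genes higher. Limma called 0 members, with 0.353% of genes higher on log2(FPKM + 1) and 0.0344% on log2(FPKM + 0.1). The groups did not overlap in 9 members, Nlrc5 being the exception, as in 22.9% of all genes. The edgeR call depended on which libraries entered the fit. Without CKD saline library 3, which is in neither group but shares the estimate of the spread, 6 members passed (H2-K1, H2-D1, H2-T23, B2m, H2-Ab1 and Cd74), where 5.65% of all genes were called higher. With only the 6 libraries of both groups in the fit, H2-T23, H2-Aa and H2-Ab1 passed, where 4.13% of all genes were called higher.

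**Figure D4:**
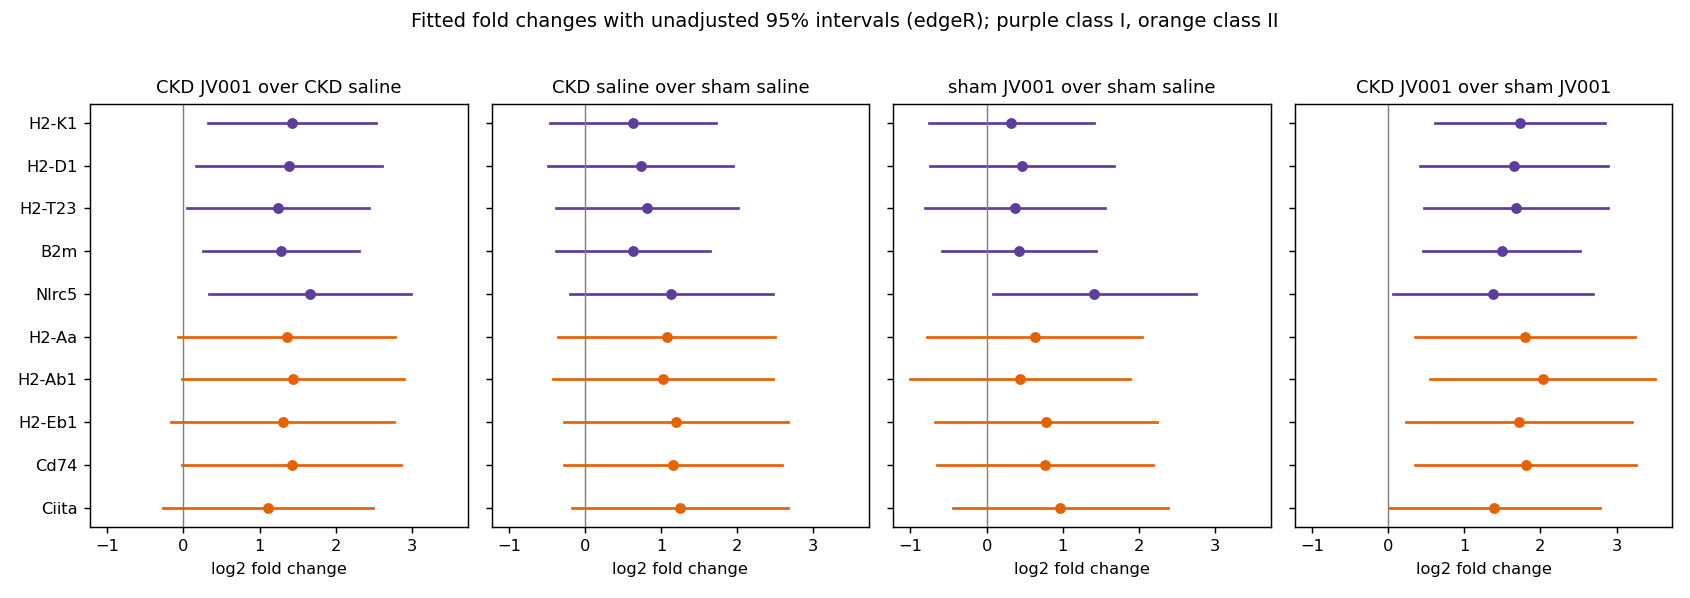
Fitted log2 fold changes of the 10 members with unadjusted 95% intervals in the 4 comparisons, class I in purple and class II in orange. All 40 values lie above 0, and the intervals lie wholly above 0 for the 5 class I members in the first panel, for Nlrc5 in the third and for all 10 in the last.

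Whether JV001 acted differently in CKD and in sham mice was tested as the interaction. The log2 difference of the JV001 effects, CKD minus sham, was positive for all 10, as for 49.9% of all genes, and had a median of 0.87 in class I (0.24 to 1.10) and 0.65 in class II (0.15 to 1.00), with an SE of 0.65 to 0.93. No member passed edgeR's test (adjusted p of 0.840 to 0.971), where 0% of genes were called higher, and 0 had an unadjusted p under 0.05, where 2.09% of genes were higher. DESeq2 and limma called 0 members, with 0% of genes higher. The medians were 0.16 in class I and 0.087 in class II without sham saline library 1, and 1.61 in class I and 1.67 in class II without CKD saline library 3. For H2-K1 the difference was 1.10 with an unadjusted 95% interval of -0.44 to 2.63. These 5 comparisons share libraries, so their values do not support one another.

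The rest of the presentation pathway was read from 6 lists with 54 genes, of which 51 were tested. In CKD JV001 against CKD saline, 43 of the 51 had a positive log2 fold change, as did 51.4% of all genes. At an unadjusted p under 0.05, 23 were higher, beside 9.29% of all genes, and 1 was lower, and 0 passed edgeR's test. Outside the fit with the replicate block, no share of all genes is given for counts of lower genes. DESeq2 and limma called 0 as well, but DESeq2 gave no adjusted p for Marchf1, Cd40, Icosl and Cd274. The groups did not overlap in 17 that were higher, beside 8.22% of all genes, and in 1 that was lower. In the fit with the replicate block of the 6 CKD libraries, 1484 of all 14289 genes were called higher (10.4%) and 1366 lower. There 22 of the 51 rose and 1 fell by edgeR's test. They were 7 of 13 genes of peptide supply, 4 of 8 other class I-like heavy chains, 3 of 9 genes of class II loading, 1 of 7 promoter factors, 4 higher and 1 lower of 9 on the interferon-gamma side and 3 of 5 co-stimulatory ligands. Of the genes named from these lists, all passed with the block except H2-DMb1, Rfx5 and Creb1. The genes named here are those of each list with the smallest p in this comparison, so they were chosen by these values.

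Peptide supply and loading for class I had a median log2 fold change of 0.72 over 13 genes, with 8 higher at an unadjusted p under 0.05, beside 9.29% of all genes. Tap1, a subunit of the peptide transporter, had 22.4, 26.1 and 128.6 CPM in CKD JV001 and 8.33, 8.31 and 19.5 CPM in CKD saline, 2.30 ± 0.68 (SE) on the log2 scale. Tapbpl, which edits the peptides of class I molecules, had 13.5, 13.6 and 52.9 CPM in CKD JV001 and 5.11, 4.81 and 12.0 CPM in CKD saline. In both genes library 3 of CKD JV001 stood far above the other libraries of its group. Pdia3, a chaperone of the loading complex, differed by 0.72 ± 0.24 (SE).

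Other class I-like heavy chains had a median of 1.18 over 8 genes, with 4 higher at an unadjusted p under 0.05, beside 9.29% of all genes. H2-M3, which presents formylated peptides, had 10.6, 9.44 and 17.5 CPM in CKD JV001 and 2.66, 2.24 and 7.58 CPM in CKD saline. H2-Q4, a non-classical heavy chain, had 106, 98.0 and 362 CPM in CKD JV001 and 35.2, 32.4 and 99.2 CPM in CKD saline. H2-T22, a ligand of gamma-delta T cells, had 42.5, 44.4 and 56.4 CPM in CKD JV001 and 21.3, 22.4 and 40.7 CPM in CKD saline. H2-M3 and H2-T22 did not overlap between the groups, and H2-Q4 did.

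Class II loading and lysosomal processing had a median of 1.05 over the 9 tested genes of 10. Of these 1 was higher at an unadjusted p under 0.05, a share near the 9.29% of all genes. H2-DMb1, a subunit of the peptide exchanger, had 3.42, 5.06 and 3.75 CPM in CKD JV001 and 0.814, 0.923 and 2.78 CPM in CKD saline. Ctss, the protease that trims the invariant chain, had 19.6, 18.2 and 38.0 CPM in CKD JV001 and 3.92, 4.81 and 20.1 CPM in CKD saline. Marchf1, a ubiquitin ligase that removes class II molecules from the surface, had 56, 65 and 379 reads in CKD JV001 and 2, 3 and 27 reads in CKD saline. With so few reads in CKD saline libraries 1 and 2, no fold is given. Only H2-DMb1 and Marchf1 of these 3 did not overlap between the groups. H2-Oa, a subunit of the exchanger's inhibitor, was at 0 in 7 libraries and was not tested.

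The factors of the shared promoter module had a median of 0.20 over 7 genes, with 2 higher at an unadjusted p under 0.05, beside 9.29% of all genes. Rfx5, which binds the X box, had 10.03, 8.49 and 14.8 CPM in CKD JV001 and 6.85, 6.03 and 6.43 CPM in CKD saline, 0.79 ± 0.26 (SE) with no overlap. Creb1, which binds the X2 box, had 16.4, 13.7 and 71.5 CPM in CKD JV001 and 8.70, 10.02 and 23.3 CPM in CKD saline. Nfya, a subunit of the Y box factor, had 19.1, 23.4 and 56.1 CPM in CKD JV001 and 11.7, 12.7 and 27.8 CPM in CKD saline. Creb1 and Nfya overlapped between the groups, with library 3 the highest in each.

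On the interferon-gamma side, the median was 1.16 over the 9 tested genes of 10. At an unadjusted p under 0.05, 5 were higher, beside 9.29% of all genes, and 1 was lower. Ifng itself had 1 read in all 12 libraries and was at 0 in 11 of them, where a count of 0 allows up to 3 reads per library. Socs1, the feedback inhibitor, had 1.20, 1.27 and 6.83 CPM in CKD JV001 and 0.592, 0.297 and 1.19 CPM in CKD saline. Irf8, a factor of myeloid cells, had 10.4, 7.88 and 34.4 CPM in CKD JV001 and 4.33, 3.66 and 10.2 CPM in CKD saline. Ifngr2, a chain of the receptor, was the lower one, with 112, 104 and 72.2 CPM in CKD JV001 and 177.4, 177.6 and 100.1 CPM in CKD saline, -0.66 ± 0.26 (SE) on the log2 scale.

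Co-stimulatory and checkpoint ligands had the highest list median, 2.61 over the 5 tested genes of 6. Of these 3 were higher at an unadjusted p under 0.05, beside 9.29% of all genes. Cd274, the ligand PD-L1, had 29.3, 31.3 and 181 CPM in CKD JV001 and 8.62, 8.15 and 22.8 CPM in CKD saline. Cd40, the receptor through which helper T cells license presenting cells, had 3.10, 2.81 and 35.1 CPM in CKD JV001 and 0.962, 0.627 and 2.70 CPM in CKD saline. Icosl, the ligand of ICOS, had 12.7, 13.4 and 149 CPM in CKD JV001 and 3.03, 3.63 and 19.8 CPM in CKD saline. All 3 were far higher in CKD JV001 library 3 than in libraries 1 and 2, and their log2 fold changes were 2.61 ± 0.72, 3.26 ± 1.00 and 2.73 ± 0.99 (SE).

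Markers of other cells differed between the libraries too, but not all in the pattern of the members. The endothelial sum was highest in CKD saline library 3, at 2346 CPM, as was the B cell sum, at 11.1 CPM. The ventricular sum was lowest, at 24885 CPM, in CKD JV001 library 3, where 9 members were highest. Summed macrophage markers were 299, 289 and 650.2 CPM in CKD JV001 libraries 1 to 3, 66.5, 62.1 and 307 CPM in CKD saline, 85.0, 162 and 49.6 CPM in sham JV001, and 89.1, 70.9 and 24.8 CPM in sham saline. The class II members summed to 374, 360.0 and 493 CPM in CKD JV001, 84.5, 69.8 and 314 CPM in CKD saline, 110.7, 179 and 58.2 CPM in sham JV001, and 117, 73.8 and 23.7 CPM in sham saline. Across the 12 libraries the class II sum varied 20.8-fold and the macrophage sum 26.2-fold, while their ratio stayed between 0.759, in CKD JV001 library 3, and 1.31. All 11 macrophage markers had a positive log2 fold change in CKD JV001 against CKD saline, as did 51.4% of all genes, with a median of 1.496. The groups overlapped in each: 0 of the 11 lay higher without overlap, beside 8.22% of all genes. By edgeR's test 0 passed, with 4 higher at an unadjusted p under 0.05, beside 9.29% of all genes. DESeq2 called 0, beside 0.222% of all genes, and limma called 0. With the replicate block in the 6 CKD libraries 9 of the 11 were called higher, beside 10.4% of all genes.

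The class I sum varied 10.1-fold and its ratio to the macrophage sum 2.88-fold, from 3.58 to 10.3. Its ratio to the endothelial sum varied 2.57-fold, from 0.450 to 1.16. The ratio of the class II sum to the fibroblast sum varied 2.23-fold, from 0.182 to 0.406, and to the endothelial sum 4.43-fold, from 0.04998 to 0.221. Endothelial markers summed to 1844 to 2229 CPM in CKD JV001, 667 to 2346 CPM in CKD saline, 835 to 970 CPM in sham JV001 and 352 to 1256 CPM in sham saline. Fibroblast markers summed to 921 to 1263 CPM in CKD JV001, 209 to 786 CPM in CKD saline, 227 to 473 CPM in sham JV001 and 130.4 to 461 CPM in sham saline. They had a median log2 fold change of 1.40 in CKD JV001 against CKD saline, with 7 of 7 genes not overlapping, beside 8.22% of all genes. Of the endothelial markers 0 of 8 lay higher without overlap. Ventricular markers had a median of -0.74, with 0 of 8 positive, where 51.4% of all genes were positive. With the replicate block in the 6 CKD libraries, 7 of 7 fibroblast markers were called higher and 8 of 8 ventricular markers lower by edgeR's test. Of all 14289 genes in that fit, 1484 were called higher (10.4%) and 1366 lower.

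**Figure D5:**
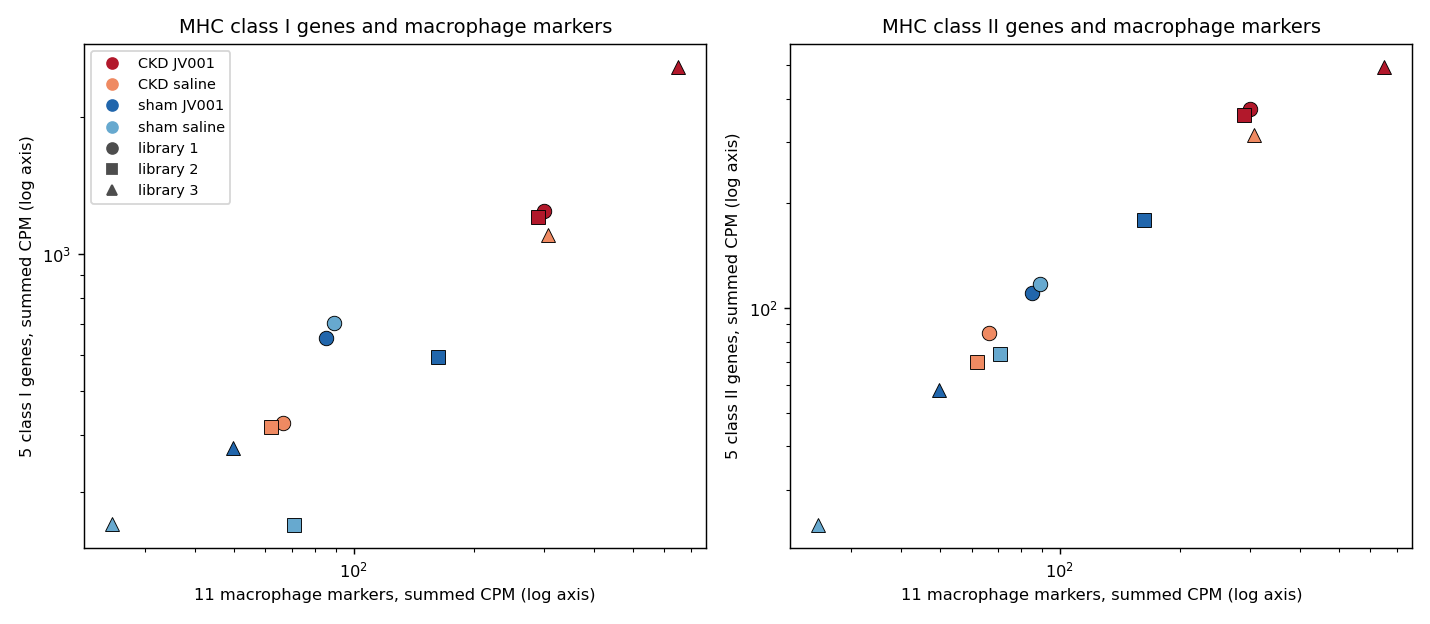
Summed CPM of the 5 class I genes (left) and the 5 class II genes (right) against the summed CPM of 11 macrophage markers in each of the 12 libraries (log axes), coloured by group with the library number as the symbol. On the right the ratio stays between 0.759 and 1.31 over a 26.2-fold range of the marker sum, and on the left between 3.58 and 10.3.

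Neutrophil markers summed to 14.5, 14.1 and 297 CPM in CKD JV001, 3.15, 4.16 and 69.1 CPM in CKD saline, 0.697 to 5.58 CPM in sham JV001 and 0.570 to 2.22 CPM in sham saline, with Ly6g at 0 in 10 libraries. The 6 B cell markers summed to 9.36 to 10.003 CPM in CKD JV001, 0.481, 1.15 and 11.1 CPM in CKD saline, 0.927 to 3.33 CPM in sham JV001 and 0.958 to 1.43 CPM in sham saline. Dendritic cell markers summed to 33.6 to 73.7 CPM in CKD JV001, 13.4 to 48.7 CPM in CKD saline, 19.9 to 28.0 CPM in sham JV001 and 10.5 to 26.2 CPM in sham saline, but Zbtb46, at 10.4 to 70.9 CPM, made up most of this, while Xcr1 was at 0 in 8 libraries, Clec9a in 5 and Flt3 in 4. Markers of pericytes and smooth muscle summed to 736 to 1923 CPM in CKD JV001, 314 to 1016 CPM in CKD saline, 438 to 501 CPM in sham JV001 and 234 to 623 CPM in sham saline. T and NK cell markers summed to 1.61, 2.52 and 3.70 CPM in CKD JV001, 0.148, 0.528 and 3.65 CPM in CKD saline, 0.589 to 0.818 CPM in sham JV001 and 0.363 to 1.96 CPM in sham saline, with Ncr1 at 0 in 9 libraries. The part that numbers of these cells took in the MHC differences was not tested.

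The genes outside the list whose pattern was most like each class were found by the same RMS difference over the 12 libraries. Nearest to class I were Slco2b1 (0.170), a transporter of organic anions, Sp110 (0.171) and Sp100 (0.175), proteins of nuclear bodies, Psmb8 (0.185), a catalytic subunit of the immunoproteasome, and Colec11 (0.191), a collectin. Nearest to class II were Csf1r (0.205), the growth factor receptor of macrophages, Dpep1 (0.212), a membrane dipeptidase, Gsn (0.216), the actin-severing gelsolin, Dcn (0.220), the fibroblast proteoglycan decorin, and Crispld2 (0.223), a secreted protein. Psmb8 had 32.3, 32.2 and 85.6 CPM in CKD JV001, 9.07, 9.50 and 30.1 CPM in CKD saline, 14.3, 13.01 and 9.24 CPM in sham JV001, and 15.4, 6.41 and 6.06 CPM in sham saline. As in H2-K1, H2-D1 and B2m, CKD JV001 lay above the other 9 libraries and library 3 was its highest. Psmb8, which is also on the list of peptide supply, was picked for its likeness over these same libraries, so this order is no separate observation. Csf1r had 62.6, 70.1 and 105 CPM in CKD JV001, 15.9, 15.7 and 63.4 CPM in CKD saline, 18.4, 30.3 and 13.2 CPM in sham JV001, and 23.3, 16.4 and 5.54 CPM in sham saline. CKD saline library 3 lay between CKD JV001 libraries 1 and 2 for this gene, so these groups overlapped. Csf1r is on the macrophage list and Dcn on the fibroblast list, so the closeness of class II to these sums and to these genes is 1 observation.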

How the data were processed

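Polyadenylated RNA of 12 libraries in 4 groups of 3 was measured. The deposited counts are whole reads per gene that the authors left unnormalised, and the deposited FPKM values are the authors' scaling of those counts by gene length and library total. The tools were fastp, HISAT2 and HTSeq, on the genome build GRCm39, per the submitters' processing notes. No source used here gives their versions, the annotation or the strand setting, so reads of overlapping or antisense genes cannot be told apart. A column was tied to its library through the initials of the group and the number in its name.

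The members, the gene lists and the motif letters were chosen with earlier results of these data known. The counts were fitted with edgeR 4.0.16 (R 4.3.3): TMM factors, a filter on low counts (filterByExpr, minimum count 10) that left 15004 of 22584 genes, 1 model of the 4 group means over all 12 libraries, quasi-likelihood tests, and Benjamini-Hochberg adjustment over all tested genes with a threshold of 0.05. SEs are of the log2 fold change, and the intervals are unadjusted 95% intervals. DESeq2 1.42.0 on the counts, and limma 3.58.1 on log2(FPKM + 1) and log2(FPKM + 0.1) for the 11624 genes with a mean of at least 0.5 FPKM, served as alternatives, which leaves Ciita out of the limma fits. A fold change on the log2(FPKM + 1) scale understates that of low genes. Other alternatives were RLE factors, other filters, only the groups compared, the replicate number as a block, each library left out, library 3 of both CKD groups left out, and libraries 1 and 2 of each CKD group summed. All 3 same-numbered pairs of CKD JV001 and CKD saline libraries correlated above 0.1 in their deviations from the group means (0.289 to 0.492), as did 6 of 18 pairs over all groups. Deviations within a group of 3 sum to 0, so a library 3 that stands apart alike in both groups raises all 3 correlations. Differently numbered pairs were not compared, so these values do not show that the number marks a pairing. The labels do not say what the number marks, and library 3 stood apart in both CKD groups. A fit of these 6 libraries with the number as a block was therefore added after seeing the data. In counts simulated for CKD JV001 against CKD saline over 14664 genes, the edgeR step called 85 of 100 genes changed 4-fold, 98 of 100 changed 8-fold and 6 unchanged genes. Simulated libraries of a group shared 1 mean, without a shift of library 3. These counts therefore do not give the power in the real libraries for any fold. The members' fitted folds in this comparison were also smaller, from 2.16 for Ciita to 3.16 for Nlrc5, and the power for them was not measured. Named were all 10 members, up to 3 genes of each pathway list with the smallest p in CKD JV001 against CKD saline, any list gene past the threshold, and the 5 genes nearest to each class. Likeness used log2 CPM with a prior count of 2, centred on the mean of the 12 libraries, and a class profile is the mean over its 5 members.

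Libraries 1 and 2 of CKD saline had the lowest chi-square of any replicates, 8.31 per gene where sampling noise gives 1 and other pairs gave 23.5 to 363. By Spearman's rho across genes, libraries 1 and 2 of CKD JV001 were the most alike (0.9925, against 0.9905 in CKD saline). All were kept as separate samples. Promoter sequences were read with Python 3.11.15 from RefSeq's table of GRCm38.p6, and motifs were counted in windows from 250 bases before to 50 after each start.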

Additional observations from a re-analysis of the deposited data

How the results depend on the processing

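Of 1100 member log2 fold changes under the alternatives, 1045 kept their direction and their side of the threshold, 43 came to pass it and 12 changed sign. Members called in CKD JV001 against sham JV001 numbered 8 by DESeq2 and 3 with only the groups compared, against 0. Of all genes, 7.46% were called higher by DESeq2 and 4.13% with only the groups compared. Without library 3 of both CKD groups, 8 were called in CKD JV001 against CKD saline, beside 9.77% of all genes called higher. In that setting the class II median of CKD saline against sham saline was 0.15, and the interaction of Nlrc5 was -0.051. With libraries 1 and 2 of each CKD group summed, the interaction of Ciita was -0.062. With each library left out in turn, CKD JV001 had between 0 and 9 members called against CKD saline and between 0 and 6 against sham JV001, all calls coming without CKD saline library 3. Without that library, 13.2% of all genes were called higher against CKD saline and 5.65% against sham JV001. The class I and class II medians of CKD JV001 against CKD saline lay between 0.92 and 2.00 and between 1.01 and 2.33, and those of CKD saline against sham saline between 0.087 and 1.51 and between 0.15 and 1.59. For the interaction they lay between 0.16 and 1.61 and between 0.087 and 1.67. Signs turned for the interactions of Nlrc5 (-0.58 to 0.80), H2-Eb1 (-0.054 to 1.54) and Ciita (-0.34 to 0.67), and for H2-Ab1 in sham JV001 against sham saline (-0.085 to 1.00). The causes were not tested. With the replicate block in the 6 CKD libraries, 9 members were called in CKD JV001 against CKD saline, beside 10.4% of all genes called higher. With the replicate block over all 12 libraries, 0 were called in any comparison and the medians of CKD JV001 against CKD saline were 1.41 in class I and 1.35 in class II. Few libraries and, for Ciita, few reads limit the precision.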

Other observations

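The rest of the presentation pathway was also compared between CKD JV001 and sham JV001. Of the 51 tested genes of the 6 pathway lists, DESeq2 called 18 higher and 1 lower in CKD JV001, beside 7.46% of all genes higher, while edgeR called 0, with 29 higher, beside 14.8% of all genes, and 2 lower at an unadjusted p under 0.05. Limma on log2(FPKM + 1) called 1, beside 0.353% of all genes higher. It was Psmb10, a catalytic subunit of the immunoproteasome, which differed by 0.96 (adjusted p = 0.0480 by limma). By list, DESeq2 called 7 of 13 genes of class I peptide supply, 3 of 8 other class I-like heavy chains, 2 of 9 genes of class II loading, 3 of 9 on the interferon-gamma side and 2 of 5 co-stimulatory ligands. Of the 7 promoter factors it called 1 higher and 1 lower. The median log2 fold change ran from 0.18 for the promoter factors to 2.73 for the co-stimulatory ligands, beside 0.02 over all genes.

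In CKD saline against sham saline 0 of the 51 passed edgeR's test, DESeq2 or limma, with 4 higher and 0 lower at an unadjusted p under 0.05, beside 2.15% of all genes higher at that level and 0.0899% called higher by DESeq2. In sham JV001 against sham saline 0 passed any of these tools, with 1 higher, beside 1.61% of all genes, and 1 lower at that level.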
